A study of Mus musculus with 8 samples.

Results

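The small GTPases of the Rab, Arf and Arl families that direct membrane traffic were followed by SAGE through neural tube tissue of mouse embryos from diabetic mothers. Members were taken by gene symbol: Rab followed by a number and at most 1 letter, Arf1 to Arf6, and Arl followed by a number and at most 1 letter. This gave 82 of the 26608 symbols in the files, namely 56 Rab, 6 Arf and 20 Arl genes. Membership followed from names only and used no measured value, though the families were chosen with earlier results of these data known. All 8 libraries came from FVB embryos of diabetic dams at embryonic day 8.5, cut from cryosections by laser, with 7 to 12 ng of total RNA per library, so no library from a non-diabetic pregnancy enters any comparison. The 4 open neural tube libraries (numbered 9, 10, 13 and 14 in their titles) hold tissue of open morphology from directly in front of closure site 1, the point at which the neural folds first meet. The 4 protrusion libraries hold outgrowths of the open neural plate, of which protrusion 1 is labelled as separated from the plate and protrusions 2, 3 and 4 as attached to it. No axial level is given for the protrusions. Nothing in the labels says that each library came from a different embryo, and protrusions 1 and 2 have titles with a common stem, so that p-values here speak only of library-to-library spread, which may be technical.

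Rab, Arf and Arl proteins are molecular switches: bound to GTP they sit on a membrane and recruit effectors, and bound to GDP they are inactive. Exchange factors switch them on and GTPase-activating proteins switch them off. Rab proteins mark compartments and steer vesicle motion, tethering and fusion. Arf proteins recruit coats such as COPI to budding vesicles, with Arf6 working at the plasma membrane and on recycling endosomes. Arl proteins are Arf relatives with scattered duties in cilia, tubulin folding, the Golgi and lysosomes. In closing neural folds these routes supply apical membrane, cadherins and ciliary proteins.

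SAGE reads 1 short tag per transcript, taken next to the last CATG site before the poly(A) tail, so that a gene's level in CPM (counts scaled to the total of its library) does not grow with transcript length. The files give counts per gene symbol and no tags, and the tag length and cutting enzyme are not given in the labels. To show what the counts of the main members probably stand for, the last CATG site with the 23 bases after it was read from 1 coding transcript per gene of GENCODE M21 (build GRCm38), the longest of those marked as principal. A tag could be predicted for 80 of the 82 members. It lay in the 3′ UTR for 71 of them, and for 75 its letters occurred in no transcript of another gene, read on the same strand. The 6 Arf genes and 5 Rab genes on which the results turn have the tags below, 5′ to 3′, with the CATG site in capitals. They are predictions, not observed reads.
Arf1, chr11:59211664-59211690, minus strand: CATGtgtgaagtagcttcctccctcag
Arf2, chr11:103985293-103985319, plus strand: CATGtggtgattggttagacaataaag
Arf3, chr15:98736652-98736678, minus strand: CATGgactgtttaatctgcactcactg
Arf4, chr14:26656968-26656994, plus strand: CATGtgcattaaagtaaggtgcactat
Arf5, chr6:28426297-28426323, plus strand: CATGctctctcttgtcgttggagcctg
Arf6, chr12:69373728-69373754, plus strand: CATGcagactatgttccaagtctgttt
Rab11a, chr9:64715355-64715381, minus strand: CATGctctgtatttggactttttttta
Rab14, chr2:35180429-35180455, minus strand: CATGacctgctggtgtgtgtatatatt
Rab43, chr6:87788908-87788934, minus strand: CATGaaaagttgccttcctggatatgt
Rab10, chr12:3248066-3248092, minus strand: CATGcctcactggtggctcttagggtt
Rab7, chr6:87999196-87999222, minus strand: CATGgcttgcttcctggagcacttccc
All 11 lie in the 3′ UTR within the last exon. The Arf tags all differ from each other after the site, so reads of these paralogs need not be split by sequence. Rab11a has 5 different predicted tags over its 6 coding transcripts, Rab7 has 4 over 7 and Rab14 has 3 over 3. Arf2, Arf3, Arf4 and Rab43 have 2 each, and the Rab43 tag is shared with the predicted gene Gm45140. For all of these genes 1 tag is shown, and which transcripts their counts cover is uncertain.

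Total counts ran from 5668054 to 16655583 reads per library, and 3 reads, taken as the floor of detection, stood for 0.18 to 0.529 CPM. Such floors and all intervals here cover counting error only, since PCR copies cannot be told from separate molecules. Between 9920 and 11557 symbols had a read in the open neural tubes, against 14575 to 16330 in the protrusions. A pair of libraries stood apart from their groups by 6 of 8 neural plate markers (Sox1, Sox2, Sox21, Pax6, Nes and Irx3), which were lowest among the open neural tubes in number 13 and highest among the protrusions in the separated one. Open neural tube 13 had Sox2 at 30.9 CPM and Sox1 at 15.3 CPM, while the other open neural tubes had Sox2 at 287 CPM or more and Sox1 at 78.0 CPM or more. The separated protrusion had Sox1 at 108 CPM and Pax6 at 31.6 CPM, while the attached ones had at most 6.85 and 7.21 CPM. The other 2 markers did not follow: Cdh2 lay within the range of the group in both libraries, and Sox3 was at 0 in the separated protrusion against 23.9 to 50.7 CPM in the attached ones. Of 8 paraxial and streak mesoderm markers 7 were tested and all were fitted higher in the protrusions, 1 past the threshold, and their summed level was 66 to 384 CPM in the open neural tubes, 561 CPM in the separated protrusion and up to 1095 CPM in the attached ones. The sums differ in make-up. T (379 to 737 CPM) and Tbx6 (158 to 285 CPM) made up most of it in the attached protrusions. In the separated one most was Meox1 (258 CPM) and Foxc2 (175 CPM), as in open neural tube 13 (184 and 180 CPM). The separated protrusion had T at 36.8 CPM and open neural tube 13 at 0.300 CPM. The summed level of 8 erythroid markers was 1.06 to 1010 CPM in the open neural tubes, almost all of it Hba-x (61.6, 1.06, 891 and 994 CPM), and 1.00 to 47.1 CPM in the protrusions, with Hbb-y at 0 throughout. That of 8 endothelial markers was 7.5 to 169 CPM and 2.29 to 34.2 CPM, with the highest values in open neural tube 13 (Tek at 106 CPM) and, among protrusions, in the separated one, and Kdr at 0 in all open neural tubes. That of 7 endoderm markers was 4.34 to 55.6 CPM and 4.59 to 24.3 CPM. The part of these cells in the results below was not tested. In these dissected pieces a change in the mix of cells and a change of RNA per cell cannot be told apart.

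The most abundant members were the recycling Rabs Rab11a and Rab14 and 3 of the Arf genes. Averaged over the libraries, 17 members exceeded 100 CPM, 15 lay between 20 and 100 CPM, 17 between 5 and 20 CPM, 16 between 1 and 5 CPM and 12 below 1 CPM. The remaining 5 members, Arl9, Arl13a, Rab20, Rab32 and Rab44, had no read in any library, and no tag was predicted for Arl9, since 1 of its 2 coding transcripts, the one used here, holds no site. Rab11a, which marks recycling endosomes and carries cargo to the apical surface, ranked first among members in 6 of 8 libraries. Rab14, which acts between early endosomes and the Golgi, ranked from 1 to 5. Rab1, the ER-to-Golgi Rab, had the most even level of the abundant members, with a highest value only 1.43 times the lowest: 280, 303, 342 and 303 CPM in open neural tubes 9, 10, 13 and 14, and 307, 240, 308 and 265 CPM in protrusions 1 to 4. Behind these came Rab2a, Rab28, Arl6, Rab18, Arf5 and Rab10, all with means between 141 and 189 CPM.

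**Figure D1:**
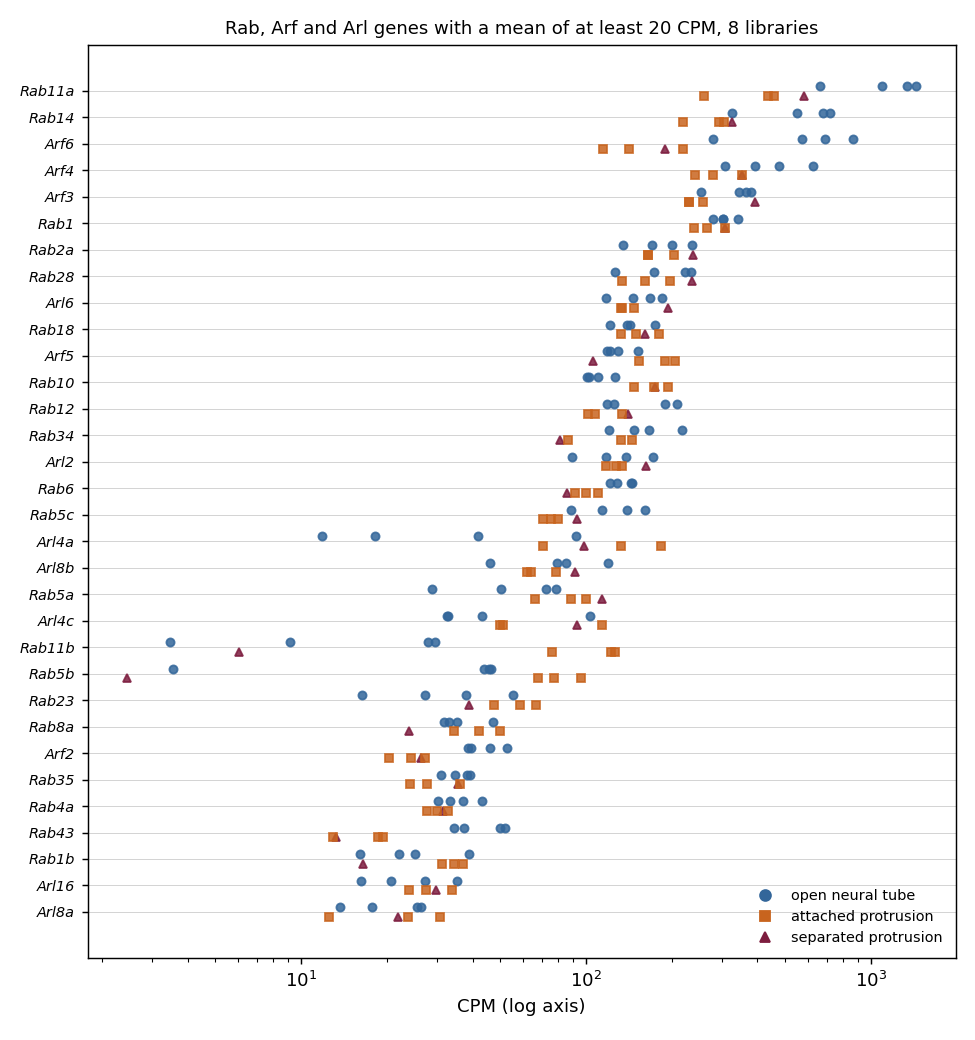
Level of each of the 32 members with a mean of at least 20 CPM in all 8 libraries, on a log axis of CPM, ordered by mean. Each point is a library, and the open neural tube points of Arf6, Rab11a and Rab43 lie to the right of all protrusion points.

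The question of the design is how protrusions differ from open neural tissue. Of the 82 members, 60 had enough reads to be tested with edgeR's quasi-likelihood test over all 11036 tested genes: 40 Rab, 5 Arf and 15 Arl genes. Arf6 was lower in the protrusions past the adjusted threshold of 0.05, and 0 members were higher. Over all tested genes 0.326% were called lower and 0.281% higher, 0.607% in either direction, so the count of 1 in 60 is a result about Arf6 and not about the families. With DESeq2 5 members were called lower (Arf2, Arf6, Rab11a, Rab14 and Rab43) and 0 higher, where 3.6% and 3.79% of all genes with an adjusted p were called. At an unadjusted p under 0.05, 9 members were lower and 3 higher, against 8.33% and 7.02% of all tested genes. The levels of the groups did not overlap for 5 members lower in the protrusions (Arf2, Arf6, Rab6, Rab11a and Rab43), where the background is 4.55% of tested genes, and for 3 members higher there (Rab10, Rab13 and Rab33b), where it is 8.84%. Rab13, a Rab of tight junctions, measured 1.58, 0, 1.08 and 0 CPM in open neural tubes and 4.42, 2.87, 2.45 and 3.49 CPM in protrusions. Rab33b, a Golgi and autophagy Rab, measured 5.33, 0.176, 6.36 and 4.78 CPM against 7.69, 12.3, 9.27 and 16.5 CPM. Both are scarce, and their predicted tags also occur in other genes. The 22 members that were not tested stayed at or below 8.82 CPM in every library.

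Arf6 remodels cortical actin and returns endocytosed membrane and cadherins to the cell surface. It was read at 574, 868, 280 and 693 CPM in open neural tubes 9, 10, 13 and 14, and at 189, 142, 219 and 115 CPM in protrusions 1 to 4. All protrusions lay below all open neural tubes, and the lowest open value was that of open neural tube 13, the library with low neural markers. The means were 604 ± 247 CPM (SD, n = 4) and 166 ± 46.6 CPM (SD, n = 4), a log2 fold change of -1.95 ± 0.32 (SE) with an adjusted p of 0.0385 by edgeR. The call was lost when any 1 of 6 libraries was left out (open neural tube 9, 10 or 14, or protrusion 2, 3 or 4), with adjusted p-values from 0.0652 to 0.118, and when protrusions 1 and 2 were summed as 1 library (adjusted p = 0.0632), while the log2 fold change ranged from -2.26 to -1.71 over all 18 alternatives. Without open neural tube 13 it was -2.15 with an adjusted p of 0.0135, and without protrusion 1 it was -2.03 with an adjusted p of 0.0370.

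The other Arf genes did not pass the threshold with edgeR. Arf2, a class I Arf that recruits Golgi coats, measured 46.1, 39.5, 52.7 and 38.6 CPM in the open neural tubes and 26.3, 20.4, 24.2 and 27.2 CPM in the protrusions. Its groups did not overlap, and its log2 fold change of -0.95 ± 0.27 had an adjusted p of 0.110. It passed in 1 of 18 alternatives, DESeq2 (adjusted p = 0.0182). Arf3, another class I Arf, measured 345, 364, 253 and 381 CPM in open neural tubes and 392, 230, 257 and 231 CPM in protrusions, so that the separated protrusion held the highest value of all 8 libraries and the attached ones lay with open neural tube 13 at the low end (log2 fold change -0.36 ± 0.22, adjusted p = 0.505). The class II Arfs, which act between the ER, the Golgi and secretory granules, were uneven. Arf4 measured 307, 391, 625 and 477 CPM in open neural tubes and 352, 241, 279 and 354 CPM in protrusions (log2 fold change -0.64 ± 0.25, adjusted p = 0.234). Arf5 measured 121, 119, 152 and 130 CPM in open neural tubes against 106, 189, 206 and 154 CPM in protrusions (0.23 ± 0.22, adjusted p = 0.712). The separated protrusion had the lowest Arf5 value and the attached protrusions the 3 highest.

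Arf1 is the classical COPI Arf of the Golgi and is used by every cell. Not a single read of it was counted in any of the 4 open neural tubes. Protrusion 1, the separated one, had 0.491 CPM and the attached ones 5.16, 3.59 and 1.32 CPM, too few reads for a test. Rab7, the late endosome and lysosome Rab, was as scarce, without a read in any open neural tube and at 0.164, 1.58, 0.875 and 0.481 CPM in protrusions 1 to 4. The predicted tags of both genes, shown above, start with CATG like the others and occur in no transcript of another gene. Other coding transcripts of Rab7 have other predicted tags, which are not shown. The rule by which reads were assigned to symbols before deposit is unknown here, so these low counts were not taken as low expression.

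**Figure D2:**
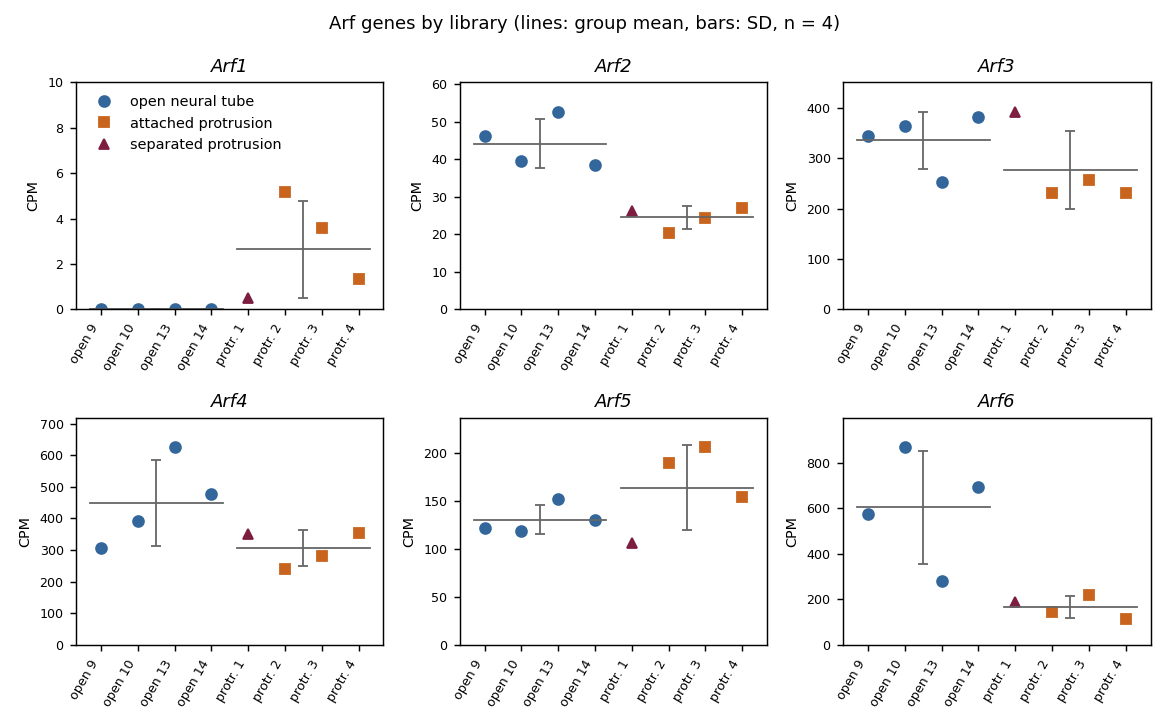
CPM of the 6 Arf genes in each library, with lines at the group means and bars for the SD (n = 4 per group). Arf2 and Arf6 have no overlap between groups, Arf1 is at 0 in every open neural tube, and protrusion 1 leaves the range of the attached protrusions upwards for Arf3 and downwards for Arf5.

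The summed Arf level was 1392, 1781, 1363 and 1719 CPM in the open neural tubes and 1066, 827, 989 and 882 CPM in the protrusions, a ratio of means of 0.602. All 4 protrusions lay below all 4 open neural tubes. The difference was mainly that of Arf6, which made up 37.7 ± 12.0% (SD, n = 4) of Arf reads in open neural tubes and 17.5 ± 3.72% (SD, n = 4) in protrusions. In the separated protrusion its share was 17.8% (95% Wilson interval 16.9 to 18.7%). The share of Arf5 was 8.52 ± 1.94% in open neural tubes and 17.7 ± 5.68% in protrusions, with 9.93% in the separated one.

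Among Rab genes the list of recycling and outward traffic held the highest levels. Rab11a was read at 1093, 1336, 663 and 1441 CPM in the open neural tubes and at 582, 458, 259 and 435 CPM in the protrusions, with no overlap between the groups. Its log2 fold change was -1.45 ± 0.31, with an adjusted p of 0.0672 over all genes. It passed the threshold in 5 of the 18 alternatives, among them DESeq2 (adjusted p = 0.000367) and the fit without open neural tube 13 and protrusion 1 (adjusted p = 0.0355). With 1 library left out, Rab11a passed in 0 of 8 edgeR fits, with adjusted p-values up to 0.195. As for Arf6, the lowest open value was that of open neural tube 13. Rab14 measured 325, 549, 677 and 716 CPM in open neural tubes and 326, 306, 220 and 292 CPM in protrusions. Its groups met only in open neural tube 9 and protrusion 1, and its log2 fold change of -1.06 ± 0.26 had an adjusted p of 0.0830. It passed in 1 of 18 alternatives, DESeq2 (adjusted p = 0.00566).

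Rab10, which moves Golgi-derived vesicles to the basolateral membrane and the cell surface, lay the other way. It measured 102, 101, 127 and 111 CPM in open neural tubes and 174, 194, 174 and 147 CPM in protrusions, without overlap and with little spread in either group. The log2 fold change was 0.56 ± 0.18 with an adjusted p of 0.169. Rab12, linked to recycling receptor turnover, measured 161 ± 45.4 CPM (SD, n = 4) in open neural tubes and 121 ± 19.2 CPM in protrusions, and its adjusted p was 0.381. Rab4a, a fast-recycling Rab, and Rab8a and Rab35, which act in transport to cilia and the plasma membrane, had means between 30.5 and 37.6 CPM in both groups. Of the 12 tested Rabs of this list, 2 had an unadjusted p under 0.05 in each direction and 0 passed the adjusted threshold. The summed level of the list was 2107 ± 387 CPM in open neural tubes and 1235 ± 135 CPM in protrusions, a ratio of 0.586.

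Several paralogs of these Rabs were seen at very uneven levels. Rab11b, close kin of Rab11a, measured 3.46, 9.17, 29.5 and 27.9 CPM in open neural tubes, 6.05 CPM in the separated protrusion, and 126, 122 and 76.3 CPM in attached protrusions. The attached protrusions were above every other library, yet with the separated one included the log2 fold change of 2.12 ± 0.86 had an adjusted p of 0.261. Rab5b, an early endosome Rab, was likewise highest in the attached protrusions and low in the separated one, but among open neural tubes it was low only in number 9. It measured 3.55, 46.4, 45.8 and 43.8 CPM in open neural tubes, 2.45 CPM in the separated protrusion, and 96.2, 77.3 and 68.0 CPM in the attached ones (log2 fold change 0.72 ± 0.90, adjusted p = 0.781). Rab11b and Rab5b were the only members of at least 20 CPM whose separated protrusion lay more than 4-fold outside the range of the attached protrusions.

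Rab8b, paralog of Rab8a, had 0 reads in 3 open neural tubes and 7.32 CPM in open neural tube 13, against 4.42, 26.2, 41.4 and 17.1 CPM in protrusions 1 to 4. Rab4b, paralog of Rab4a, likewise had 0 reads in open neural tubes 9, 10 and 14 and 6.90 CPM in open neural tube 13, against 0.491, 15.1, 24.8 and 13.3 CPM in protrusions. The predicted tag of Rab4b is shared with Gm21983. In both genes the values of open neural tube 13 and of the separated protrusion kept the groups close together or overlapping. Leaving out both of these libraries, Rab8b and Rab4b were called higher by edgeR with adjusted p-values of 0.0209 and 0.0377, where 1.02% of tested genes were called higher. The libraries left out held the only open reads and the lowest protrusion value of each gene. The calls thus follow from that removal and are no support for a difference. With 1 library left out, each gene passed in 0 of 8 fits. With all 8 libraries the adjusted p-values were 0.365 and 0.540. Open neural tubes lacked reads for many genes of this abundance, as described below, and the part of that in these results was not tested.

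**Figure D3:**
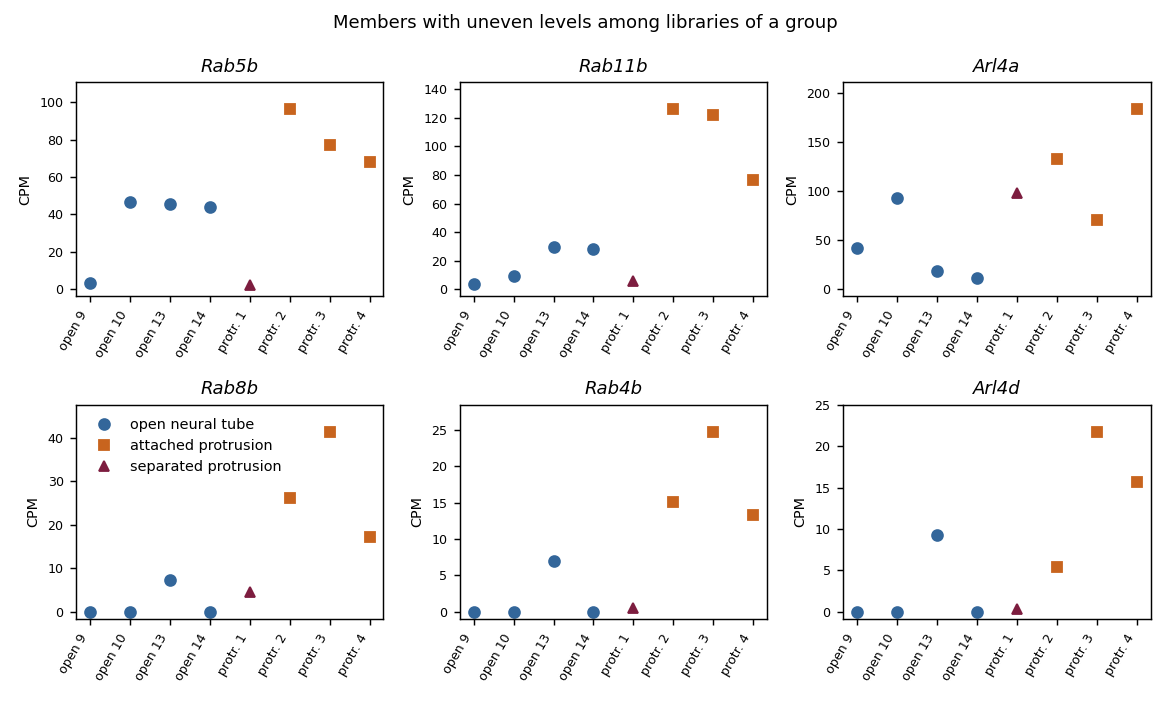
CPM of 6 members in each library, with symbols for the 3 morphology labels. The attached protrusions exceed all other libraries for Rab5b, Rab8b, Rab11b and Rab4b, the separated protrusion lies at the low end of the open neural tubes for Rab5b and Rab11b, and open neural tube 13 is the only open library with reads of Rab8b, Rab4b and Arl4d.

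The ER and Golgi Rabs were mostly level between groups. Their summed level was 878 ± 54.1 CPM in open neural tubes and 808 ± 59.2 CPM in protrusions, a ratio of 0.920. Rab2a, which acts at the ER-Golgi intermediate compartment, measured 185 ± 42.7 CPM (SD, n = 4) and 192 ± 34.7 CPM (SD, n = 4). Rab18, found on the ER and lipid droplets, measured 145 ± 22.5 and 156 ± 20.3 CPM in the same order, with a log2 fold change of 0.02 ± 0.17. Fold changes this near 0 turned sign under some alternatives.

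Groups without overlap were seen in 3 members of the list: Rab33b, described above, which was higher in the protrusions, and Rab43 and Rab6, which were lower. Rab43, a Rab of ER-to-Golgi transport and retrograde traffic to the Golgi, measured 34.5, 51.9, 37.3 and 49.9 CPM in open neural tubes and 13.3, 12.9, 19.3 and 18.6 CPM in protrusions. All protrusions lay below all open neural tubes, and the log2 fold change of -1.53 ± 0.30 had an adjusted p of 0.0527. It passed the threshold in 5 of 18 alternatives, including DESeq2 (adjusted p = 0.000297). With 1 library left out, Rab43 passed in 0 of 8 edgeR fits, with adjusted p-values up to 0.175. Rab6, the Golgi Rab now named Rab6a, measured 129, 145, 144 and 121 CPM in open neural tubes and 85.9, 111, 99.8 and 91.8 CPM in protrusions, a tight pair of groups without overlap (log2 fold change -0.56 ± 0.18, adjusted p = 0.153).

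The early endosome Rabs summed to 403 ± 20.1 CPM in open neural tubes and 369 ± 46.2 CPM in protrusions. The 3 Rab5 paralogs, which drive early endosome fusion, did not move alike. Rab5c measured 140, 114, 88.5 and 162 CPM in open neural tubes and 92.9, 70.7, 79.7 and 75.5 CPM in protrusions (log2 fold change -0.75 ± 0.23, adjusted p = 0.137), overlapping only through open neural tube 13 and protrusion 1. Rab5a measured 78.7, 28.9, 72.2 and 50.4 CPM in open neural tubes and 114, 66.2, 88.9 and 100.1 CPM in protrusions (0.57 ± 0.34), and Rab5b was described above. Rab34, linked to macropinocytosis and ciliogenesis, measured 163 ± 41.2 and 111 ± 32.7 CPM (log2 fold change -0.62 ± 0.27, adjusted p = 0.309). The differences between the paralogs' fold changes were not tested.

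Rabs of cilia and hedgehog signalling were well covered. Rab28, which acts at the base of cilia, measured 222, 173, 233 and 127 CPM in open neural tubes and 235, 161, 134 and 197 CPM in protrusions, with overlapping ranges (log2 fold change -0.14 ± 0.27). Rab23, a negative regulator of hedgehog signalling whose loss leaves the mouse neural tube open, measured 55.4, 27.2, 38.1 and 16.4 CPM in open neural tubes and 38.8, 47.5, 66.7 and 58.9 CPM in protrusions. These ranges overlap, and its log2 fold change was 0.52 ± 0.38 with an unadjusted p of 0.202. The late endosome and lysosome list summed to 6.94 ± 4.34 CPM in open neural tubes and 15.5 ± 6.91 CPM in protrusions, and the 8 Rabs of regulated secretion, such as the Rab3 and Rab27 genes of neurons and granule-bearing cells, to 12.2 ± 10.1 and 10.1 ± 5.45 CPM. Both lists lay at levels where reads are few.

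The Arl family as a whole was higher rather than lower in the protrusions by summed level, with 612, 659, 593 and 511 CPM in open neural tubes and 757, 655, 687 and 706 CPM in protrusions, a ratio of means of 1.18, and the groups overlapped through open neural tube 10 and protrusion 2. Of 15 tested Arl genes 0 passed the threshold in either direction by edgeR or DESeq2, 1 had an unadjusted p under 0.05 (Arl4a), and 6 were fitted above and 9 below 0. Over all 11036 tested genes 5930 were fitted above 0 and 5106 below 0. The ciliary and tubulin-linked Arls were the most abundant list of the family, with a sum of 307 ± 25 CPM in open neural tubes and 308 ± 45.8 CPM in protrusions. Arl6, the Bardet-Biedl protein that brings the BBSome coat to cilia, measured 154 ± 29.1 and 152 ± 28.8 CPM (log2 fold change -0.11 ± 0.22). Arl2, a partner of tubulin folding cofactors, measured 129 ± 34.6 and 135 ± 19.5 CPM (-0.01 ± 0.23). Arl8b and Arl8a, which couple lysosomes to kinesin, measured 82.5 ± 29.9 and 20.9 ± 6.16 CPM in open neural tubes, and 74.0 ± 13.7 and 22.3 ± 7.54 CPM in protrusions. Arl13b, a GTPase of the ciliary membrane needed for hedgehog signalling in the neural tube, measured 10.9 ± 5.12 and 13.4 ± 5.09 CPM.

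The Arl4 genes, which bind the plasma membrane and recruit Arf6 exchange factors, carried the difference of the family. Arl4a measured 41.7, 92.6, 18.2 and 11.8 CPM in open neural tubes and 98.2, 133, 70.6 and 184 CPM in protrusions. Its ranges overlapped only through open neural tube 10 and protrusion 3, and the log2 fold change of 1.52 ± 0.58 had an adjusted p of 0.237. Arl4c measured 43.2, 32.5, 104 and 32.7 CPM in open neural tubes and 93.3, 50.04, 114 and 51.2 CPM in protrusions, the high open value being that of open neural tube 13 (log2 fold change 0.41 ± 0.44, adjusted p = 0.738). Arl4d had reads in only 1 open neural tube, number 13 (9.25 CPM), and in protrusions 1 to 4 at 0.327, 5.45, 21.8 and 15.7 CPM. The sum of the 3 genes was 96.4 ± 40.2 CPM in open neural tubes and 209 ± 28.7 CPM in protrusions, a ratio of 2.17, with no single gene past the threshold.

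Summed over all 82 members the level was 5305, 6286, 5432 and 6222 CPM in open neural tubes 9, 10, 13 and 14 and 4624, 4228, 4234 and 4302 CPM in protrusions 1 to 4, so that every protrusion lay below every open neural tube (ratio 0.748). Most of this gap came from a few genes. Without Rab11a and Arf6 the ratio was 0.920, and without Rab14 as well it was 0.987. The 2 members with the highest means over all 8 libraries, Rab11a and Rab14, held 29.0 ± 4.36% (SD, n = 4) of member reads in open neural tubes. In protrusions these same genes held 16.5 ± 3.63% (SD, n = 4). The 10 members with the highest means held 69.9 ± 3.33% and 55.8 ± 6.05% in the same order. Rab11a alone made up 30.8 ± 7.89% of Rab reads in open neural tubes and 15.9 ± 4.40% in protrusions. A sum of CPM falls where other genes take more of a library. With CPM scaled by TMM factors the ratios became 0.698 for Rab, 0.566 for Arf and 1.11 for Arl. For all members the scaled ratio was 0.705. It was 0.864 without Rab11a and Arf6, and 0.927 without Rab14 as well. Each scaled ratio was lower than its unscaled one. The gap over all members was thus wider with scaling, and more of it was left without these genes.

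**Figure D4:**
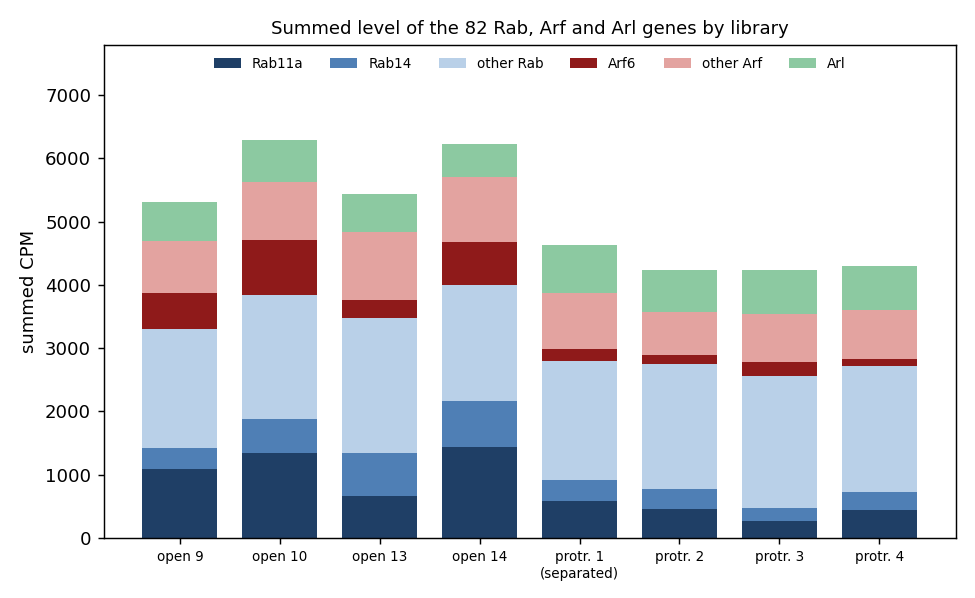
Stacked bars of the summed CPM of the 82 members in each library, split into Rab11a, Rab14, the other Rab genes, Arf6, the other Arf genes and the Arl genes. The Rab11a and Arf6 segments are smaller in every protrusion than in any open neural tube, while the segment of the other Rab genes changes little.

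Fold changes depended on abundance, in the members as in all genes. The median log2 fold change of the 60 tested members was -0.03, beside 0.08 for all tested genes. For the 32 members of at least 20 CPM it was -0.13, beside -0.04 for all genes of that level, and for the 17 members of at least 100 CPM it was -0.36, beside -0.13. Of these 17 members 14 (82.4%) were fitted lower in the protrusions, while 59.5% of all genes of that level were. Non-overlapping groups were lower in the protrusions for 3 of the 17 members and 12.9% of such genes, and higher for 1 of them and 8.87%, while 1 of them and 1.64% were called lower. From 20 CPM up, non-overlapping groups were lower for 5 of the 32 members and 7.58% of genes, and higher for 1 of them and 8.6%, while 1 of them and 0.645% were called lower. These cuts use means over all 8 libraries, so a high level in 1 group can carry a member past them. Rab6 and Rab5c passed 100 CPM by their open levels, with protrusion means of 97.02 and 79.7 CPM. Rab43 passed 20 CPM likewise, and Rab6 and Rab43 are among the non-overlapping lower members. The other way, Rab11b passed 20 CPM by its protrusions, and Arl4a missed 100 CPM with a protrusion mean of 121 CPM. All genes were cut alike. By family, the medians were -0.01 for Rab, -0.64 for the 5 tested Arf genes and -0.02 for Arl. The median of all members lay at 0.06 without scaling factors, so its sign depends on the scaling.

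**Figure D5:**
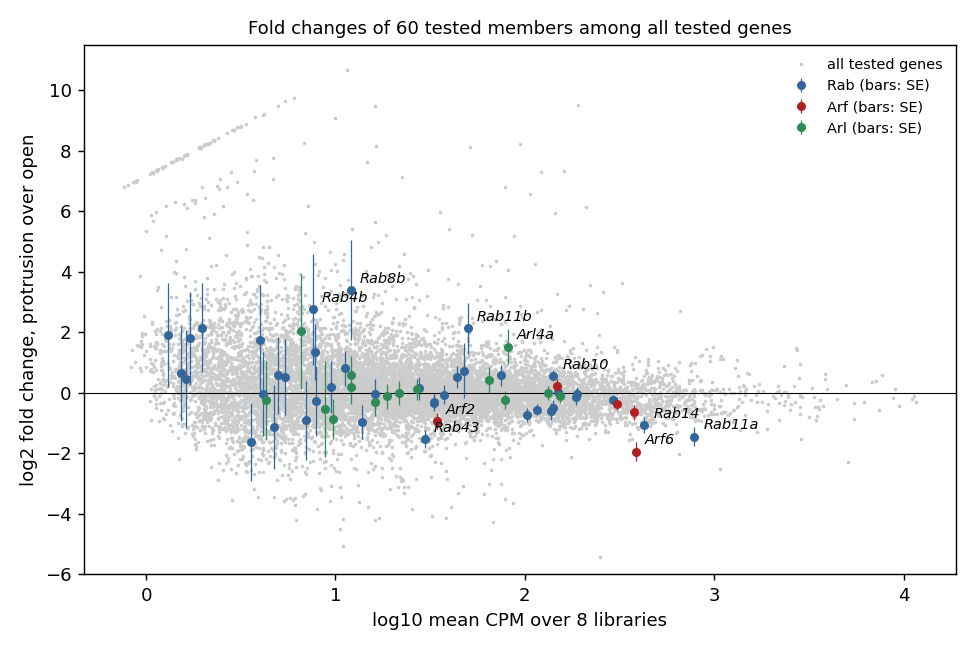
Log2 fold change (protrusion over open neural tube, fitted by edgeR) against log10 mean CPM for the 60 tested members, with SE bars, over all 11036 tested genes in grey. Arf6, Rab11a, Rab14 and Rab43 lie lowest among the members of at least 20 CPM, the members below 20 CPM have wide errors, and the grey line at the upper left holds genes with no read in the open neural tubes, whose fitted fold has no bound.

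Scarce members were missed more often in the open neural tubes. Reads were found for 57, 52, 59 and 54 of the 82 members in open neural tubes 9, 10, 13 and 14, and for 69, 73, 75 and 70 in protrusions 1 to 4, with 44 members read in every library. Members of at least 20 CPM were never at 0. Of the 17 members with a mean of 5 to 20 CPM, 4, 4, 2 and 4 were at 0 in the open neural tubes and 0 in each protrusion. This is 20.6% of such values in open neural tubes, beside 11.5% for all genes of that level, and 0% in protrusions, beside 0.297%. For members of 1 to 5 CPM the shares at 0 were 45.3% and 6.25%, beside 47.0% and 5.12% for all genes. A total of 8 members had reads in protrusions only, 5 Rab, 1 Arf and 2 Arl genes, and Arl14 alone had reads in open neural tubes only. Some of the 8 rest on reads at or under the floor: Arl10 and Arl11 had 1 read in 1 library, and Rab3c had 3 reads in each of 2. Arl14 had 69 and 36 reads in open neural tubes 13 and 14. The share of all genes read in only 1 group was not computed, so these counts are no result about the members. Since missed genes were more frequent in open neural tubes at each of these levels for genes of every kind, a member at 0 there is described as not detectable in those libraries, not as absent.

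Compared with the open neural tubes, the attached protrusions alone gave more separated groups, though groups separate more readily when a library is left out. Without protrusion 1, 10 of 63 tested members were higher without overlap (Arf1, Arf5, Rab2b, Rab4b, Rab5b, Rab8b, Rab10, Rab11b, Rab13 and Rab33b), where 17.9% of tested genes were, and 7 were lower (Arf2, Arf6, Rab5c, Rab6, Rab11a, Rab14 and Rab43), where 6.94% were. The threshold was still passed by 1 member, Arf6, where 0.741% of genes were called lower and 0.759% higher. Leaving out open neural tube 13 instead of protrusion 1 also gave 10 of 63 tested members higher without overlap, and 6 lower. The shares over all tested genes were then 16.4% and 7.11%. The separated protrusion is a single library, so its own differences have no replicate check.

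The proteins that load, unload and read these GTPases were taken from 8 lists with 179 genes in the files, of which 143 were tested. Evi5, a Rab11 GTPase-activating protein that works at the centrosome, was lower in the protrusions past the threshold, and 0 genes were higher. Over all tested genes 0.326% were called lower and 0.281% higher, so this is a result about Evi5 and not about the lists. Evi5 measured 247, 237, 207 and 274 CPM in open neural tubes and 118, 66.2, 94.7 and 67.4 CPM in protrusions, with no overlap. The log2 fold change was -1.57 ± 0.22 with an adjusted p of 0.0207. The call was lost when any 1 of 6 libraries was left out (open neural tube 9, 10 or 14, or protrusion 2, 3 or 4), with adjusted p-values from 0.0596 to 0.0943. At an unadjusted p under 0.05, 14 of the 143 were lower and 3 higher, against 8.33% and 7.02% of all genes, and their median log2 fold change was 0.02.

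Other partners with large differences did not pass with edgeR on all 8 libraries. Golga4, a trans-Golgi tether bound by Arl1, measured 79.1 ± 28.8 CPM in open neural tubes and 28.4 ± 6.44 CPM in protrusions (log2 fold change -1.56 ± 0.31, adjusted p = 0.0562), and passed in 6 of 18 alternatives, among them DESeq2 (adjusted p = 0.000598). With 1 library left out, Golga4 passed in 1 of 8 fits. Iqsec1, an exchange factor of Arf6, measured 69.7, 85.6, 127 and 95.3 CPM against 61.0, 30.1, 50.4 and 35.7 CPM, without overlap (-1.19 ± 0.29, adjusted p = 0.0824), and passed in 3 of 18 alternatives. Smap2, an Arf GTPase-activating protein, measured 149 ± 17.8 and 96.3 ± 3.85 CPM (-0.72 ± 0.18, adjusted p = 0.0830), and Smap2 passed in 1 alternative. Rabep1, an effector of Rab5 and Rab4, measured 65.3 ± 23.2 and 32.2 ± 6.62 CPM (-1.11 ± 0.31, adjusted p = 0.106), and Rabep1 passed in 1 alternative. In the other direction, Dennd1b, an exchange factor of Rab35, measured 4.25, 0.176, 8.95 and 2.63 CPM in open neural tubes and 19.8, 15.9, 32.1 and 20.4 CPM in protrusions (2.31 ± 0.86, adjusted p = 0.222).

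The general machinery was close to level. Of 8 genes for prenylation and extraction of Rabs, all tested, 0 had an unadjusted p under 0.05. Chm, the Rab escort protein, measured 63.2 ± 9.0 CPM in open neural tubes and 52.2 ± 10.9 CPM in protrusions, and Gdi2, which extracts GDP-bound Rabs from membranes, 141 ± 23.4 and 125 ± 18.9 CPM. The 9 genes of the COPI coat, which Arf proteins recruit, likewise had 0 with an unadjusted p under 0.05 and a median log2 fold change of -0.07. Copz1, the most abundant of them, measured 369 ± 24.6 and 480 ± 86.9 CPM (log2 fold change 0.29 ± 0.17). The Golgi Arf exchange factor Gbf1 measured 224 ± 25.7 and 171 ± 38.3 CPM (-0.49 ± 0.20, adjusted p = 0.264). Among the exchange factors of Rabs, 14 of 20 tested genes were fitted above 0, and among the Arf GTPase-activating proteins 12 of 17 below 0, with 0 past the threshold in either list. Over all 11036 tested genes 5930 were fitted above 0 and 5106 below 0. Whether these short lists differ from that was not tested.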

How the data were processed

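The deposited files hold whole-number counts of SAGE reads per gene symbol for each of the 8 libraries, without normalization. Libraries were made with a SOLiD SAGE kit, per the labels' protocols, and the submitters' processing notes name build mm9. For the mapper, strand handling and the rule tying tags to symbols, the sources used here give nothing. CPM are counts scaled to the library total, computed here. Groups came from the source names and morphology labels. Protrusions against open neural tubes were tested on all genes in R 4.3.3 with edgeR 4.0.16 (filterByExpr with a minimum count of 10, TMM factors, robust quasi-likelihood F test, 2-sided, Benjamini-Hochberg adjustment over 11036 genes, threshold 0.05). The common dispersion was 0.556, a coefficient of variation of 0.746. Standard errors came from the F statistic. Alternatives were DESeq2 1.42.0, voom of limma 3.58.1, other scaling, other filters and libraries left out. The scripts were tested on simulated data. Tags were predicted from GENCODE M21 transcripts, where 80 members matched a current symbol and 1, Rab6, a synonym, while Rab1 had no single match. Members and gene lists were chosen with earlier results of these data known. Named genes are all Arf genes, the 8 most abundant Rab and 5 most abundant Arl genes, members past the threshold, members of at least 10 CPM without overlap, members at 0 throughout, members with uneven levels, and the leading genes of each partner list. Rab5a, Rab5c, Rab34, Rab23, Rab4a, Rab8a, Rab35, Rab8b, Rab4b, Rab7, Rab13, Rab33b, Rab2b, Arl4d, Arl13b and Arl14 were named outside this rule, after their values were seen.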

Additional observations from a re-analysis of the deposited data

Results flagged for a closer look

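For the 32 members of at least 20 CPM, the 4 libraries of each group were searched for a single value far from the others, which chance alone flags in about 1 group in 20, and 3 of 64 groups held one. Arf3 in the separated protrusion, at 392 CPM, stood above the attached protrusions at 230 to 257 CPM. Arl4c in open neural tube 13, at 104 CPM, stood above the other open neural tubes at 32.5 to 43.2 CPM. Rab5b in open neural tube 9, at 3.55 CPM, stood below the other open neural tubes at 43.8 to 46.4 CPM.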

How the results depend on the processing

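No paired analysis was possible because the groups share no replicate numbers. Over all genes 67 passed, and 103 with upper-quartile factors, 133 with a filter of 20 CPM in 4 libraries, 795 with DESeq2, 370 with voom, 189 with voom and sample weights, 36 with protrusions 1 and 2 summed, 211 without protrusion 1 and open neural tube 13, and 1 to 172 with 1 library left out. Members called lower numbered 1, and 2, 2, 3, 5, 3, 2, 0 and 2 with upper-quartile factors, no filter, the 20 CPM filter, DESeq2, voom, weighted voom, the summed libraries and both libraries left out, and 0 to 1 with 1 left out. Members called higher numbered 0, and 2 without both libraries, Rab8b and Rab4b, whose only open reads were in open neural tube 13. Regulators past the threshold numbered 1, and 2 with the 20 CPM filter, 5 with DESeq2, 3 with voom, 3 with weights, 2 without both libraries and 0 to 2 with 1 left out. Members higher without overlap numbered 3, and 7 with no filter, 1 with the 20 CPM filter, 10 with summed libraries, 14 without both libraries and 3 to 10 with 1 left out. Over all tested genes the share higher was 8.84% with all 8 libraries and 24.5% without both. It was 17.9% without protrusion 1 and 16.4% without open neural tube 13, so the rise in members went with a rise over all genes. Members lower without overlap numbered 5, 8 without both libraries and, with TMM-scaled CPM, an alternative chosen after seeing the data, 7. The share lower over all tested genes was 4.55%, 10.4% without both libraries and 5.99% with TMM-scaled CPM. The median log2 fold change of -0.03 became 0.21 with voom and 0.26 with weights. The summed Rab ratio was 0.740, and 0.698 with TMM-scaled CPM. For 45 named genes, those of the naming rule that were tested with Rab4b, Rab5a, Rab5c, Rab8b, Rab23 and Rab34, 736 of 807 values under an alternative kept direction and side of the threshold, 13 lost the call, 25 gained it and 33 changed sign. Those 33 belong to 7 genes with log2 fold changes near 0 and no call under any alternative. Without scaling factors Rab2a became 0.056, Arl2 0.068 and Arl8a 0.0898. With the 20 CPM filter Rab2a became 0.032, Arl2 0.043 and Arl8a 0.066, and with no filter Arl2 0.017 and Arl8a 0.0031. Arl8a became 0.00072 with relative log expression factors, Arl2 0.025 with voom and 0.016 with weights, and without both libraries Rab18 became -0.00061 and Arl8a 0.12. With 1 library left out the log2 fold change ranged from -0.15 to 0.18 for Rab2a, from -0.29 to 0.0195 for Rab28, from -0.0067 to 0.15 for Rab18, from -0.26 to 0.063 for Arl6, from -0.11 to 0.18 for Arl2, from -0.41 to 0.055 for Arl8b and from -0.15 to 0.17 for Arl8a. Arf6 passed in 11 of 18 alternatives and Evi5 in 12 of 18. The causes of these shifts were not tested.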

Other observations

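Regulators of less studied kinds were also read. Ankfy1, a Rab5 effector of endosomes, measured 172 ± 50.2 CPM (SD, n = 4) in open neural tubes and 113 ± 16.8 CPM (SD, n = 4) in protrusions, with an adjusted p of 0.183 by edgeR. Sbf2, a Rab exchange factor of the DENN family, measured 75 ± 8.25 and 52.8 ± 5.81 CPM without overlap (adjusted p = 0.217), and Arl6ip1, an ER-shaping protein first found as a binder of Arl6, 439 ± 96.0 and 318 ± 69.4 CPM (adjusted p = 0.179). Asap1, an Arf GTPase-activating protein of focal adhesions, measured 76.4 ± 31.5 and 49.5 ± 7.31 CPM (adjusted p = 0.318). Within COPI, Arcn1, the delta subunit, measured 185 ± 22.3 and 151 ± 18.8 CPM (adjusted p = 0.345). Copb2 was higher in all 3 attached protrusions, at 49.3, 59.0 and 44.7 CPM, than in the open neural tubes, at 14.6 to 27.9 CPM, while the separated protrusion had 20.3 CPM (adjusted p = 0.354).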
